A study of Mus musculus with 4 samples.

Results

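This account covers 28 genes of inhibitory signalling by GABA and glycine in the mouse cochlea: the receptors for both transmitters, their scaffold, the enzymes and transporters of GABA and glycine, and the chloride exporter that sets the direction of the current. They were taken by symbol from a table of 24411 genes, and all 28 were found in it. The samples were cochlear tissue at postnatal day 7 from mice homozygous for an Otof knockout (2 pools) and from mice heterozygous for it (2 pools), each pool combining the paired cochleas of 2 to 3 pups. Otof encodes otoferlin, a calcium sensor required for transmitter release from inner hair cells to the spiral ganglion. The heterozygous animals carry 1 knockout allele as well, and the labels name no wild-type pool and no other allele, strain or treatment. Not every subunit gene of these receptor families is among the 28.

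GABA and glycine open chloride channels that are rings of subunits, and GABA also acts through the GABA-B receptor, which couples to G proteins. Gephyrin holds the chloride channels at the synapse, plasma membrane transporters clear the transmitter, and the exporter encoded by Slc12a5 keeps chloride low inside mature neurons, so that these channels inhibit. In the cochlea, fibres of the olivocochlear efferents contain GABA beside acetylcholine, and spiral ganglion neurons carry GABA-A receptors. The cell bodies of those efferents lie in the brainstem, and many of the 28 genes are strongly expressed in brain, so each pool was read on its own.

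The libraries held 31509349 to 38090726 estimated counts. Levels are given in CPM, counts scaled to a common library size, and a gene with 0 counts could have had up to 3 counts, or 0.0776 to 0.0943 CPM, from counting error alone. Otof had 5 and 9 counts in homozygous pools, against 86 and 83 counts in heterozygous pools, which follows the labels (log2 fold change -3.62 ± 0.46, adjusted p = 9.82e-06 by DESeq2 and 0.116 by edgeR). Both homozygous pools stood apart in sex-linked transcripts. Y-linked Ddx3y had 3878 and 0 counts in homozygous replicates 1 and 2, against 2700 and 1872 counts in heterozygous pools, and Xist had 2 and 19085 counts in homozygous pools, against 5771 and 6733 counts in heterozygous pools. Of 10 markers listed for cochlea, 9 passed the filter on low counts. The list summed to 537 and 211 CPM in homozygous pools and 403 and 115 CPM in heterozygous pools. Most of this was Coch, at 510 and 191 CPM in homozygous pools and 367 and 91.9 CPM in heterozygous pools. Of the 9 markers, 7 had a log2 fold change below 0 and 2 above it. Of 16 hair cell markers 6 passed the filter, and the list summed to 208 and 193 CPM in homozygous pools and 222 and 230.2 CPM in heterozygous pools, most of it from Myo6 and Myo7a. Espn rose by DESeq2 (adjusted p = 0.0377), Atoh1 had 0 counts throughout, and Pou4f3 had 0 counts in both homozygous pools and 7 and 0 counts in heterozygous pools. The labels do not say whether the pools of a genotype came from separate litters, so the p-values measure the spread between these pools. In bulk tissue, fewer cells of a type and less RNA per cell cannot be told apart.

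Inhibitory genes were mostly lower in the homozygous cochleas. Slc12a5, Gabra5, Gabrg1, Slc6a11, Abat and Glra1 fell by DESeq2 at an adjusted p of 0.05 and no member rose, which is 6 of the 25 members given an adjusted p. Among all 16028 genes given one, DESeq2 called 4.14%, with 3.16% lower and 0.986% higher. edgeR's quasi-likelihood test, the main test here, called 0 of the 23 members that passed the filter and 0% of the 15359 genes tested. The smallest edgeR adjusted p was 0.165 among the members and 0.101 among all genes. At an unadjusted edgeR p under 0.05, 13 of the 23 members were lower and 0 higher, against 8.91% lower and 4.36% higher among all genes. The CPM values of both homozygous pools lay below both heterozygous pools in 18 of the 23 members and above them in 0, while 24.5% of all genes tested were separated downwards and 21.6% upwards. The median log2 fold change, homozygous over heterozygous, was -0.73 over the 23 members and 0.01 over all genes tested. Glra1 passed the filter through the heterozygous pools alone. Gabrd, Gad2, Slc32a1 and Gabre had only 3, 4, 3 and 8 counts in 1 homozygous pool each, and their heterozygous pools helped them pass. The numbers of members given above thus describe the list and do not test it. A rank or permutation test of 1 gene with 2 pools against 2 cannot go below a two-sided p of 0.333, and none was run.

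**Figure D1:**
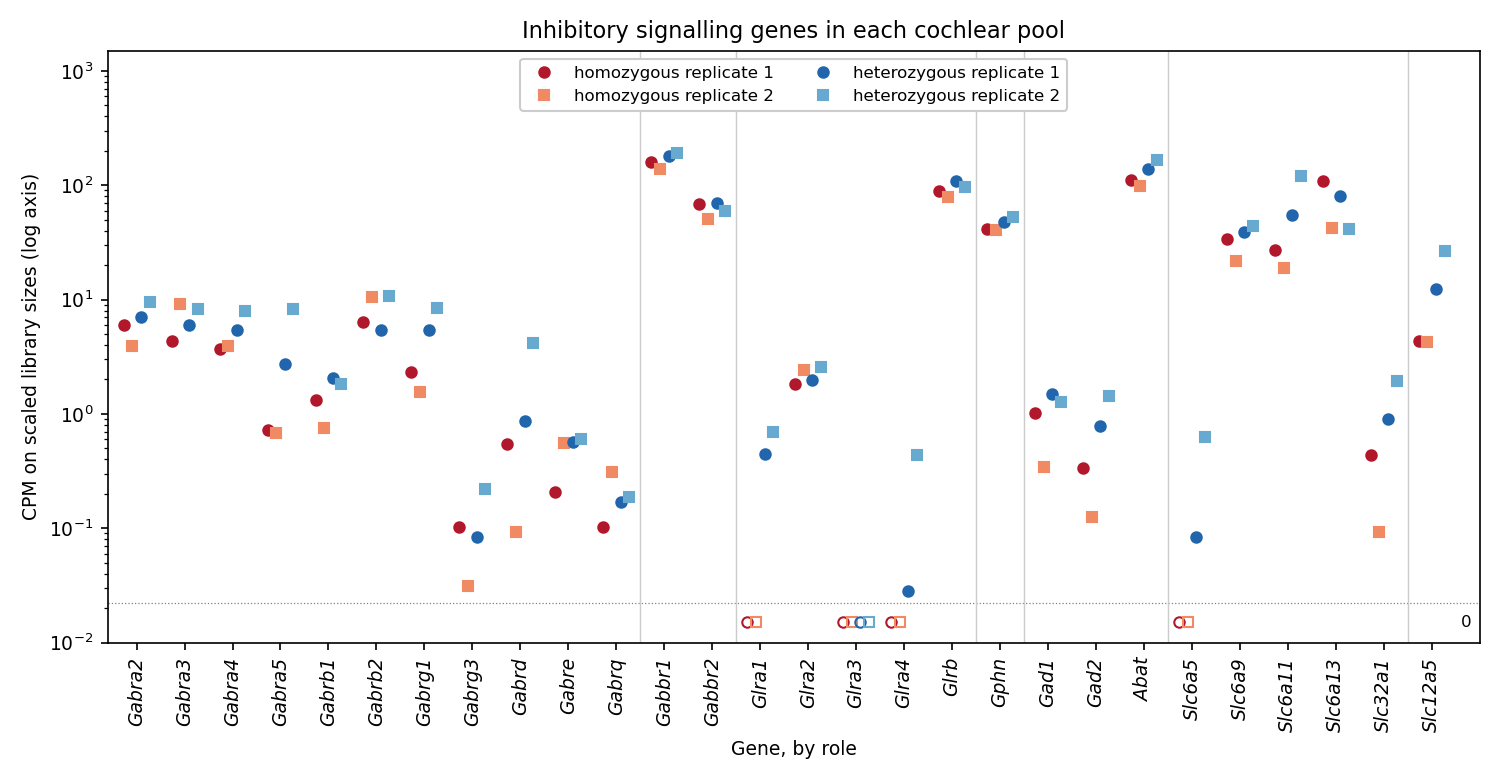
Level of each of the 28 genes in each pool, as CPM on a log axis, with genes ordered by role and grey lines between roles. Open symbols under the dotted line are counts of 0. Slc12a5 and Gabra5 sit together in the homozygous pools and apart in the heterozygous pools, where replicate 2 is higher.

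The start regions of 4 genes that fell are shown to compare the letters upstream of genes that were lower together. Each is the 250 bases before an annotated start, from RefSeq on GRCm38.p6, with matches of the motifs below in capitals. Slc12a5 is given at the second of 2 starts. The windows are chr2:164967738-164967987 (plus strand) for Slc12a5, chr7:57510060-57510309 (minus) for Gabra5, chr5:70842618-70842867 (minus) for Gabrg1 and chr6:114130991-114131240 (plus) for Slc6a11.
Slc12a5: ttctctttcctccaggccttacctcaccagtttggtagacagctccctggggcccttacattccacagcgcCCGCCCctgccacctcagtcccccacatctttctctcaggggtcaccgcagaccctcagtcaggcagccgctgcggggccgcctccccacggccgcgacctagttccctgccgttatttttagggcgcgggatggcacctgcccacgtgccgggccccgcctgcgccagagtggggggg
Gabra5: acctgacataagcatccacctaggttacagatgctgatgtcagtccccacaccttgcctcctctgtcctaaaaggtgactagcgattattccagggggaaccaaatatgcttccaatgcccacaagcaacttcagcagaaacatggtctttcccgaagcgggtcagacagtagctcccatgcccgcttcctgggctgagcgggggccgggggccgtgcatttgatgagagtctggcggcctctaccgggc
Gabrg1: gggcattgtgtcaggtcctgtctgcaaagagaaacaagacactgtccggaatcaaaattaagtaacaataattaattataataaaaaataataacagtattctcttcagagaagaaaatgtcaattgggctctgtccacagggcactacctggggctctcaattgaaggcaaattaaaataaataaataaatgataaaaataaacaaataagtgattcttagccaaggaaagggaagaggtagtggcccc
Slc6a11: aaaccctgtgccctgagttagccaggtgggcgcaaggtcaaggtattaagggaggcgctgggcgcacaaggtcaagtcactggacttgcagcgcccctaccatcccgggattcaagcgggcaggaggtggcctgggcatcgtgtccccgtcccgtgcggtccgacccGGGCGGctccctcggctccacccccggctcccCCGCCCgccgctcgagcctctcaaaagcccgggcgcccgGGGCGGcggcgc
The motifs searched on both strands were the GC box (GGGCGG), the CRE (TGACGTCA), the EGR site (GCGNGGGCG, which can overlap a GC box) and the TATA box (TATAAA). The window of Slc6a11 held 3 GC boxes and that shown for Slc12a5 held 1, while those of Gabra5 and Gabrg1 held none of the 4 motifs. The window at the first start of Slc12a5, not shown, also held none of them. Among 32817 start windows of this length, 32.7% held a GC box, 1.55% a CRE, 4.7% an EGR site and 12.4% a TATA box. Of 35 start windows matched for 25 members, 17 held a GC box, 0 a CRE, 2 an EGR site and 5 a TATA box. G and C made up 35.6% of the Gabrg1 window, 56.4% of that of Gabra5, 67.2% of that of Slc12a5 and 71.2% of that of Slc6a11. Abat, Glra1 and Gabrd had no entry.

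The pools of 1 genotype did not match each other in these genes. Heterozygous replicate 2 held the highest level of 17 of the 23 members tested, and homozygous replicate 2 held the lowest level of 16. Among all genes tested, heterozygous replicate 2 was highest in 27.3% and homozygous replicate 2 was lowest in 27.8%. Without homozygous replicate 2, DESeq2 called 2 members and 1.94% of all genes. Leaving out heterozygous replicate 2 also gave 2 members, with 1.04% of all genes called. Members called without homozygous replicate 1 numbered 6, with 4.76% of all genes, and without heterozygous replicate 1 they numbered 5, with 1.52% of all genes. These were not the same genes as with all pools. Gabrd had a DESeq2 adjusted p of 0.0121 without homozygous replicate 1 and 0.0486 without heterozygous replicate 1. Slc6a9 had one of 0.00237 without homozygous replicate 1, where Slc6a11 and Glra1 were not called.

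Markers of central glia were also lowest in homozygous replicate 2 by their summed level. The summed level of 18 central glia markers, genes of oligodendrocytes and astrocytes, was 2025 and 723 CPM in homozygous pools and 2490.1 and 2550.5 CPM in heterozygous pools. All 18 were detected in every pool, and 15 were lower in both homozygous pools than in both heterozygous pools. Of these, Slc1a2, Aldh1l1, Slc7a10 and Aldoc fell by DESeq2, while Opalin, Gfap and Ntsr2 overlapped between genotypes. Of 22 central neuron markers, Skor2 and Hoxb5 were at 0 in every pool and 13 passed the filter. The summed level of the list was 182 and 157 CPM in homozygous pools, against 187 and 168 CPM in heterozygous pools. Among the 13, 8 had a log2 fold change below 0 and 5 above it, and both homozygous pools lay below both heterozygous pools in 5 and above them in 3, which were Zic2, Zic5 and Tbr1. Cbln1, Cbln3 and Neurod6 fell by DESeq2 and 0 rose. A list of 24 general neuronal markers, of which 11 fell by DESeq2, summed to 7117 and 6889 CPM in homozygous pools and 9962 and 9889 CPM in heterozygous pools. Of 15 Schwann cell markers 7 fell, and their sum was 23837 and 20679 CPM in homozygous pools and 39466 and 41080.2 CPM in heterozygous pools. A list of 10 bone and cartilage markers went the other way, with 9057 and 9055 CPM in homozygous pools and 7950 and 5167 CPM in heterozygous pools. All 10 had a log2 fold change above 0, and 0 passed DESeq2. The part of these cell types and tissues in the results that follow was not tested.

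**Figure D2:**
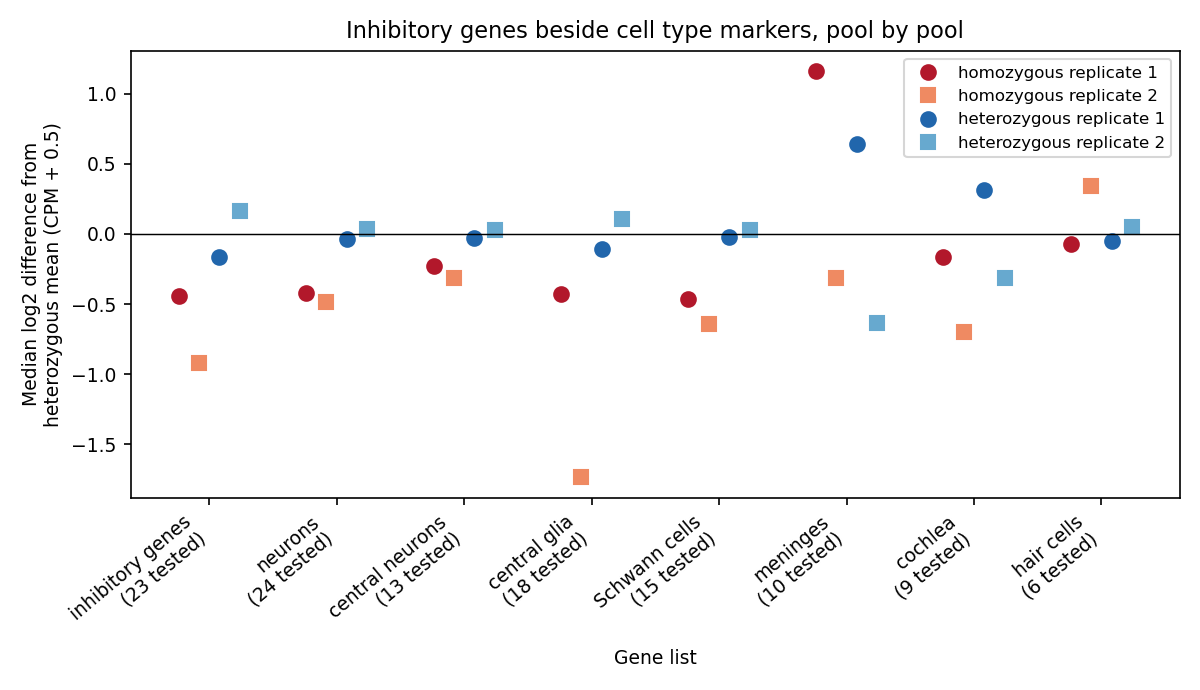
Median log2 difference of each pool from the heterozygous mean (CPM plus 0.5) for the inhibitory genes and for marker lists, over the genes of each list that passed the filter. The inhibitory genes sit at -0.45 and -0.92 in homozygous replicates 1 and 2, and central glia at -0.43 and -1.73.

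Of the 6 members that fell, Slc12a5 was the only one that DESeq2 called whichever pool was left out. Slc12a5, which encodes the neuronal potassium-chloride exporter (chromosome 2, 164960802 to 164999731, plus strand, GRCm38), had 4.32 and 4.24 CPM in homozygous replicates 1 and 2, against 12.3 and 26.7 CPM in heterozygous replicates 1 and 2. The homozygous pools were alike, the heterozygous pools differed 2.18-fold, and the genotypes did not overlap. Its log2 fold change was -2.19 ± 0.40 (SE), with an adjusted p of 4.14e-06 by DESeq2 and 0.165 by edgeR. The adjusted p was largest, at 0.038, without heterozygous replicate 2. Across the 4 pairs of a homozygous and a heterozygous pool its log2 difference lay between -2.66 and -1.50. The importer that loads cells with chloride, Slc12a2, also fell by DESeq2, with 261 and 234 CPM in homozygous pools and 329 and 319 CPM in heterozygous pools (adjusted p = 0.0291). Scaled by exon length, the level of Slc12a2 over that of Slc12a5 was 41.2 and 37.7 in homozygous pools, against 18.3 and 8.13 in heterozygous pools. This ratio was chosen after the values were seen, and Slc12a2 is also made by many cells that are not neurons.

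Among the subunits of the GABA-A receptor, Gabra5 and Gabrg1 fell by DESeq2. Gabra5, an alpha subunit known from extrasynaptic receptors of the hippocampus (chromosome 7, 57407672 to 57510059, minus strand), had 0.724 and 0.685 CPM in homozygous pools, against 2.75 and 8.3 CPM in heterozygous pools. Both homozygous pools were low, and heterozygous replicate 2 was 3.01-fold above heterozygous replicate 1. The log2 fold change was -2.96 ± 0.61, with an adjusted p of 0.000181 by DESeq2 and 0.193 by edgeR. Without heterozygous replicate 2, DESeq2 gave -1.97 and an adjusted p of 0.698.

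Gabrg1, a gamma subunit that astrocytes of several brain regions make in quantity (chromosome 5, 70751047 to 70842617, minus strand), had 2.33 and 1.56 CPM in homozygous pools, against 5.4 and 8.49 CPM in heterozygous pools. The genotypes did not overlap. Its log2 fold change was -1.83 ± 0.35, with an adjusted p of 0.000762 by DESeq2 and 0.171 by edgeR. The DESeq2 adjusted p was 0.132 without homozygous replicate 2 and 0.615 without heterozygous replicate 2.

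The other alpha subunits did not pass either test. Gabra2 had 6 and 3.93 CPM in homozygous pools and 7.03 and 9.47 CPM in heterozygous pools, a log2 fold change of -0.73 ± 0.29. Gabra4 had 3.7 and 3.93 CPM in homozygous pools and 5.42 and 7.86 CPM in heterozygous pools (-0.80 ± 0.25). Gabra3 had 4.34 and 9.13 CPM in homozygous pools and 5.93 and 8.3 CPM in heterozygous pools, so its genotypes overlapped. Gabra5 thus took 8.87% and 6.2% of the length-scaled sum of the alpha subunits Gabra2 to Gabra5 in homozygous pools, against 21.8% and 37.5% in heterozygous pools. Gabra3 took 40.4% and 62.6% in homozygous pools and 35.6% and 28.4% in heterozygous pools.

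Of the beta subunits, which bind GABA together with the alpha subunits, Gabrb2 overlapped between genotypes, at 6.31 and 10.4 CPM in homozygous pools and 5.45 and 10.7 CPM in heterozygous pools. Gabrb1 was lower without passing, at 1.32 and 0.748 CPM in homozygous pools and 2.05 and 1.82 CPM in heterozygous pools (-0.90 ± 0.39). Gabrd, the delta subunit of extrasynaptic receptors, had 21 and 3 counts in homozygous pools, against 31 and 132 counts in heterozygous pools. Heterozygous replicate 2 stood far above the other libraries there. The log2 fold change of Gabrd was -2.92 ± 1.06, with an adjusted p of 0.0882 by DESeq2 and 0.359 by edgeR. The rarer subunits had few counts. Gabre had 8 and 18 counts in homozygous pools and 20 and 19 counts in heterozygous pools. Gabrq had 4 and 10 counts in homozygous pools and 6 and 6 counts in heterozygous pools, and Gabrg3 had 4 and 1 against 3 and 7 counts.

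**Figure D3:**
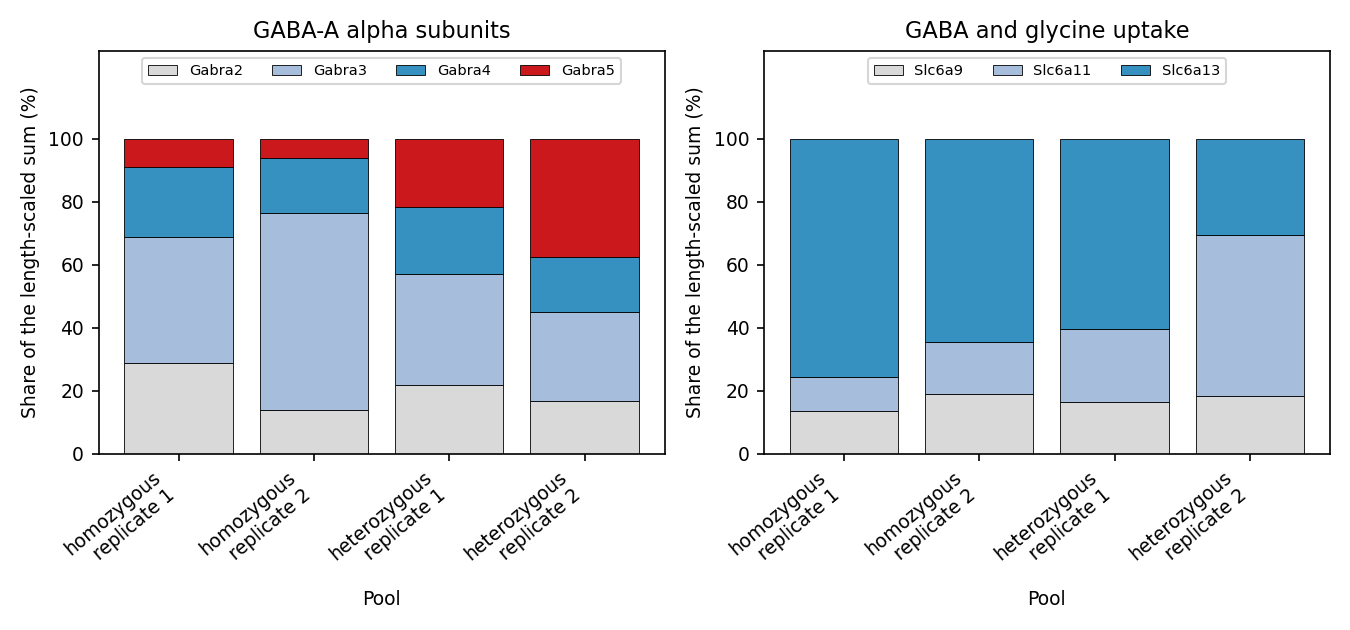
Share of each gene in the length-scaled sum (CPM per kilobase of exons, in percent) of 4 GABA-A alpha subunits and of 3 uptake transporters, in each pool. The Gabra5 segment is 8.87% and 6.2% in the homozygous pools and 21.8% and 37.5% in the heterozygous pools.

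The GABA-B receptor needs both of its subunits to signal from the membrane, and both were far more abundant than the GABA-A subunits listed here. Per kilobase of exons, Gabbr1 stood at 19.3 ± 1.8 CPM in homozygous pools and 23.8 ± 1.1 CPM in heterozygous pools (mean ± SD, n = 2), and Gabbr2 at 8.86 ± 1.8 and 9.6 ± 1.1 CPM in the same order. The highest GABA-A subunit of the list per kilobase in homozygous pools, Gabra3, stood at 1.72 ± 0.86 CPM there and 1.81 ± 0.43 CPM in heterozygous pools. Gabbr1 had 159.7 and 140 CPM in homozygous pools, against 179 and 191 CPM in heterozygous pools. It had a log2 fold change of -0.30 ± 0.10 without overlap between genotypes, and a DESeq2 adjusted p of 0.249. Gabbr2 overlapped, with 67.9 and 50.5 CPM in homozygous pools and 69.5 and 58.9 CPM in heterozygous pools (-0.12 ± 0.17).

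Glycine receptor genes split into an abundant beta subunit and rare alpha subunits. Glrb, which anchors the receptor to gephyrin, had 89.6 and 79.5 CPM in homozygous pools, against 108 and 97 CPM in heterozygous pools. Per kilobase it was 33 and 22.4 times the sum of the alpha subunits in homozygous pools, and 28.2 and 15.7 times in heterozygous pools. Glra2, the alpha subunit typical of immature neurons, was the main one and overlapped, with 71 and 77 counts in homozygous pools and 70 and 82 counts in heterozygous pools. Glra1, the alpha subunit of mature receptors in spinal cord and brainstem (chromosome 11, 55514238 to 55608198, minus strand), had 0 and 0 counts in homozygous pools, against 16 and 22 counts in heterozygous pools. Set against a floor of 3 counts per library, it was at least 6.67-fold lower in the homozygous pools. Its adjusted p was 0.0164 by DESeq2 and 0.172 by edgeR. DESeq2 gave it 0.269 without homozygous replicate 2, 0.9999 without heterozygous replicate 2, and no adjusted p without homozygous replicate 1 or heterozygous replicate 1. Glra4 had 0 and 0 counts in homozygous pools and 1 and 14 counts in heterozygous pools, and Glra3 had 0 counts in every library.

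Gphn, the gephyrin scaffold gene, had 41.3 and 40.7 CPM in homozygous pools, against 47.3 and 52.4 CPM in heterozygous pools. The genotypes did not overlap, and its log2 fold change of -0.28 ± 0.09 did not pass DESeq2 (adjusted p = 0.388) or edgeR (0.302). Glrb, its binding partner, had a similar value of -0.28 ± 0.10 and did not pass either.

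The enzymes that make GABA were scarce, and the one that breaks it down was abundant. Gad1 and Gad2 encode the glutamate decarboxylases. Gad1 had 39 and 11 counts in homozygous pools, against 53 and 40 counts in heterozygous pools (-1.0 ± 0.57). Gad2 had 13 and 4 counts in homozygous pools, against 28 and 46 counts in heterozygous pools (-2.23 ± 0.64, DESeq2 adjusted p = 0.195). Both were lowest in homozygous replicate 2. Slc32a1, which loads GABA and glycine into vesicles, had 17 and 3 counts in homozygous pools, against 32 and 62 counts in heterozygous pools (-2.36 ± 0.79, DESeq2 adjusted p = 0.192). Its exons share 24.9% of their length with an antisense gene, and the sources used here do not say that strand was kept.

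Abat, the GABA transaminase of mitochondria (chromosome 16, 8513429 to 8621568, plus strand), had 111 and 97.5 CPM in homozygous pools, against 138 and 166 CPM in heterozygous pools. It fell by DESeq2, with an adjusted p of 0.0152. The log2 fold change by edgeR was -0.54 ± 0.12, with an edgeR adjusted p of 0.213. The DESeq2 adjusted p was 0.309 without homozygous replicate 2, 0.0993 without heterozygous replicate 1 and 0.9999 without heterozygous replicate 2. Per kilobase, Abat stood at 75.9 and 191 times the sum of Gad1 and Gad2 in homozygous pools and 54.3 and 52.3 times in heterozygous pools.

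Of the uptake transporters, Slc6a11 alone fell. Slc6a11, the GABA transporter of astrocytes (chromosome 6, 114131241 to 114249952, plus strand), had 27.1 and 18.9 CPM in homozygous pools, against 54.6 and 120 CPM in heterozygous pools. The genotypes did not overlap, and heterozygous replicate 2 was 2.19-fold above replicate 1. Its log2 fold change was -1.92 ± 0.42, with an adjusted p of 0.0344 by DESeq2 and 0.203 by edgeR. DESeq2 did not call it without homozygous replicate 1 (adjusted p = 0.212) or homozygous replicate 2 (0.838).

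Slc6a13, the GABA transporter known from the leptomeninges, was the member with the highest mean level per kilobase in homozygous pools. It had 109 and 42 CPM in homozygous replicates 1 and 2 and 81 and 41.4 CPM in heterozygous replicates 1 and 2, so replicate 1 of each genotype was high and the genotypes overlapped (0.31 ± 0.54). The 10 meningeal markers, all detected in every pool, summed to 2708 and 870.2 CPM in homozygous pools and 1533 and 493 CPM in heterozygous pools. All 10 had a log2 fold change above 0. Of them, 2 were higher in both homozygous pools than in both heterozygous pools, and 1 rose by DESeq2. Slc6a9, the glial glycine transporter, had 34.2 and 21.7 CPM in homozygous pools, against 39 and 44.1 CPM in heterozygous pools (-0.57 ± 0.23, DESeq2 adjusted p = 0.281). Of the length-scaled sum of these 3 transporters, Slc6a11 took 10.8% and 16.7% in homozygous pools and 23.4% and 50.9% in heterozygous pools, and Slc6a13 took 75.8% and 64.5% in homozygous pools and 60.3% and 30.6% in heterozygous pools. An opposite-strand gene, Ccdc24, overlaps 27.8% of the exon length of Slc6a9. Slc6a5, the glycine transporter of glycinergic neurons, had 0 and 0 counts in homozygous pools and 3 and 20 counts in heterozygous pools.

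**Figure D4:**
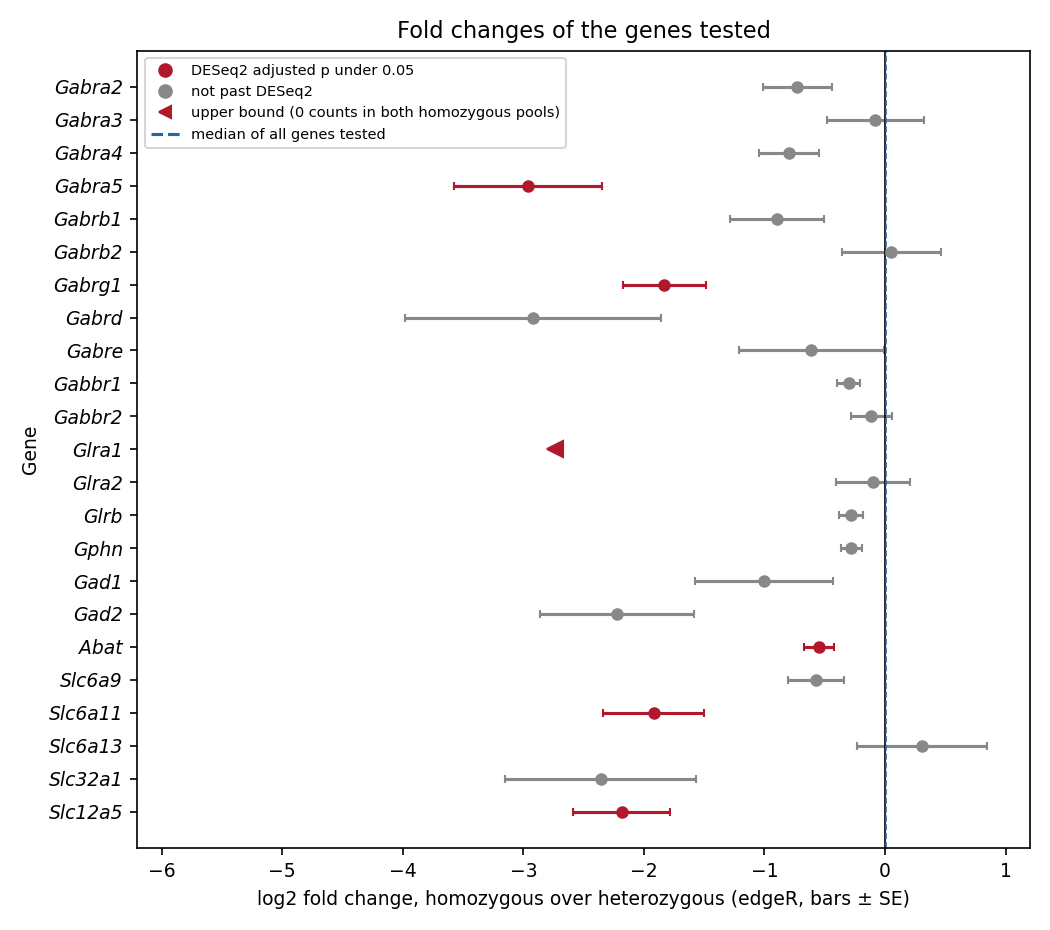
Log2 fold change, homozygous over heterozygous, of the 23 genes that passed the filter (edgeR, bars ± SE), with genes past DESeq2 in red and the median of all genes tested as a dashed line. Glra1 is drawn at its bound of -2.74, and 21 of the 23 genes lie below 0.

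The authors' deposited table of changed genes lists 3 of the 28 members. In the authors' deposited table the log2 fold changes are -2.96 for Gabra5, -2.17 for Slc12a5 and -1.82 for Gabrg1. It holds 343 genes with an adjusted p up to 0.00982 and an absolute log2 fold change of at least 0.5. Abat, Slc6a11 and Glra1 are not in it, and their DESeq2 adjusted p values here, 0.0152, 0.0344 and 0.0164, are above its largest. The authors' table speaks in its name of removed outliers without saying which. With all 4 pools, DESeq2 here gave -2.96 for Gabra5, -2.18 for Slc12a5 and -1.82 for Gabrg1, with standard errors of 0.623, 0.391 and 0.415. The authors' standard errors are 0.622, 0.39 and 0.413, so their values nearly match the fit of all 4 pools. Their table is not independent of the fits above.

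**Figure D5:**
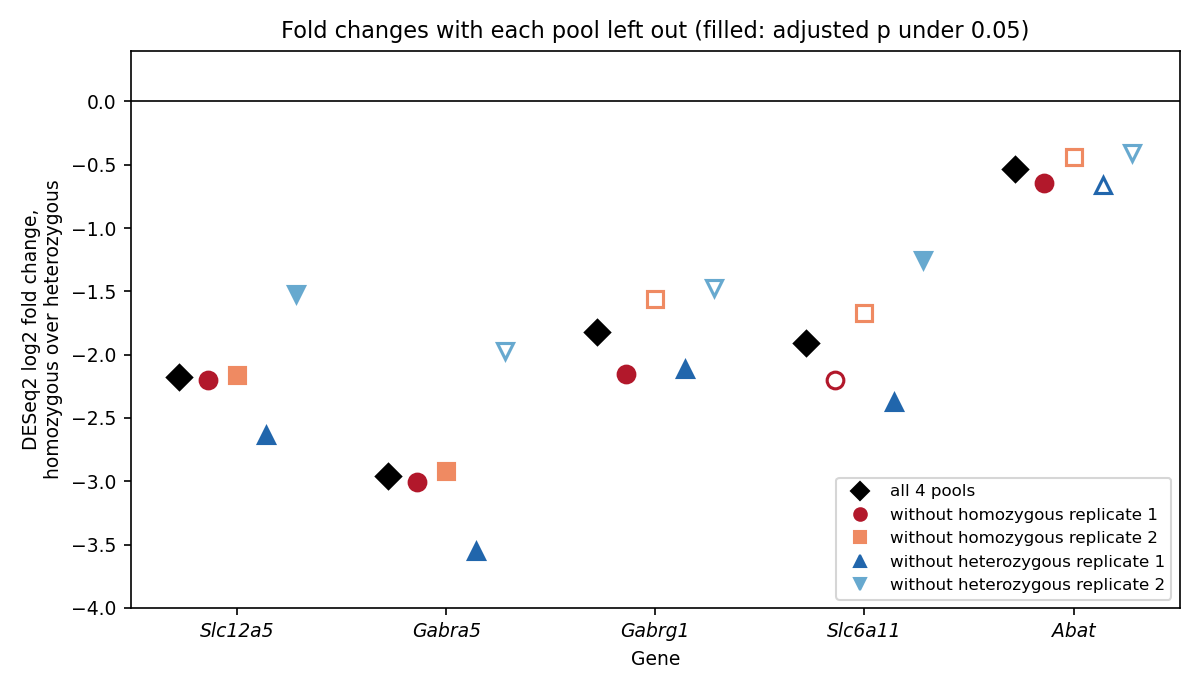
DESeq2 log2 fold change, homozygous over heterozygous, of 5 genes with all 4 pools and with each pool left out, filled where the adjusted p is under 0.05. Slc12a5 stays filled throughout, and each gene is nearest 0 without heterozygous replicate 2.

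Other genes of GABA and glycine signalling were taken from a second list. Of 51 listed, 49 were found in the table and 47 were given an adjusted p by DESeq2, of which 4 fell and 1 rose, against 3.16% lower and 0.986% higher among all genes. The list's median log2 fold change was -0.09 over the 46 genes that passed the filter. Besides Slc12a2, the genes that fell were Lhfpl4, a partner of GABA-A receptors at inhibitory synapses, Trak1, an adaptor for mitochondrial transport along axons, and Slc38a5, a glutamine and glycine carrier. Lhfpl4 had 107 and 99 CPM in homozygous pools, against 141 and 139.5 CPM in heterozygous pools (-0.45 ± 0.07, DESeq2 adjusted p = 0.00518). Trak1 had 123 and 110.2 CPM in homozygous pools, against 159 and 149 CPM in heterozygous pools (-0.40 ± 0.09). Slc38a5 had 2.56 and 2.46 CPM in homozygous pools, against 5.48 and 5.25 CPM in heterozygous pools (-1.09 ± 0.20). Mdga1, a membrane protein that binds neuroligin at inhibitory synapses, rose, with 1155 and 996 CPM in homozygous pools and 788 and 815 CPM in heterozygous pools. Its log2 fold change was 0.43 ± 0.12 with a DESeq2 adjusted p of 0.0146. In this list, 0 genes passed DESeq2 without heterozygous replicate 1 or without heterozygous replicate 2, and 1 without homozygous replicate 2.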

How the data were processed

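Poly-A RNA of 4 cochlear pools was sequenced. Per gene, the authors deposited estimated counts, not normalized. The submitters' processing notes name Salmon, DESeq2 and mm10, and the series' design text names an nf-core pipeline. No version, gene annotation or strand setting is given in what was used here. In each library 92.4% to 92.8% of values were whole. The authors' own table of changed genes holds the mean signal, the log2 fold change, the Wald score, the p-value and the adjusted p-value, per the file headers.

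For testing, the values were turned into integers by rounding. edgeR 4.0.16 gave the main result, run in R 4.3.3 with TMM scaling, filterByExpr, the quasi-likelihood test and Benjamini-Hochberg adjustment over 15359 genes, and genotype as its sole covariate. DESeq2 1.42.0 (Wald test, default settings) was fitted on every gene with a count and gave 16028 an adjusted p. The words rose and fell follow DESeq2 at 0.05. Log2 fold changes given with ± are edgeR's, with the standard errors implied by its F statistic. CPM, counts scaled to a library of 1000000, use TMM-scaled library sizes. Levels per kilobase divide CPM by exon length in GENCODE M21 (GRCm38, also called mm10), which may differ from the authors' annotation. Both tests were run on simulated counts of 2 pools against 2, with 100 genes changed 2-fold and 100 changed 4-fold. DESeq2 called 90% of the 2-fold and 100% of the 4-fold changes, with 59 false calls. edgeR called 75% and 100%, with 18 false calls. DESeq2, which the words rose and fell follow, thus made more false calls there. In the measured counts edgeR called 0 of the 15359 genes, Otof included (log2 fold change -3.62, edgeR adjusted p = 0.116). The simulated rates therefore may not hold for the measured counts, and 0 calls by edgeR there do not exclude large changes. The members and lists were chosen with earlier results of these data known. All 28 members are named, as are the other pathway genes past DESeq2. Alternatives were other scaling, other filters, a replicate block, each pool left out and, added after seeing the data, DESeq2 on filtered genes.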

Additional observations from a re-analysis of the deposited data

How the results depend on the processing

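By edgeR 0 genes passed. The same count was 664 with DESeq2 and 495 with a replicate block, with a range of 0 to 60 when 1 pool was left out. For the members it was 0 with edgeR, 6 with DESeq2, 2 with the replicate block (Slc12a5 and Gabra5), and 0 when any pool was left out. For the other pathway genes it was 0, then 5 with DESeq2, 2 with the replicate block and 0 to 1 with a pool left out. By DESeq2, leaving out 1 pool gave 169 to 687 genes, 2 to 6 members and 0 to 5 pathway genes, and the replicate block gave 608, 4 and 3. DESeq2 on filtered genes gave 685, 6 and 5. The labels do not say that replicate numbers pair the pools. Deviations of the replicate 1 pools from their genotype means correlated at 0.359 over genes, and with 2 pairs this decides nothing.

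The members' median log2 fold change stayed between -1.01 and -0.50 in every setting run. Of 225 values of single members under an alternative, 10 changed sign, in 5 members that passed no test. Left-out pools gave -0.70 to 0.35 for Gabra3, -0.36 to 0.62 for Gabrb2, -0.36 to 0.0899 for Gabbr2, -0.30 to 0.10 for Glra2 and -0.56 to 0.87 for Slc6a13. The cause was not tested. Where 1 pool of a genotype remained, it was assumed to vary as much as the other genotype's pools. Depth limits Gabrg3, Gabrq, Glra4 and Slc6a5, which did not pass the filter on low counts. Glra4 and Slc6a5 were clear of the limit that a count of 0 allows only in heterozygous replicate 2, with 14 and 20 counts. Glra1 passed the filter but had only 16 and 22 counts in heterozygous pools.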

Other observations

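Several members lie together in the genome. Gabrg1, Gabra2, Gabra4 and Gabrb1 form a cluster on chromosome 5, the chromosome of Otof, with midpoints 40.4 to 41.5 Mb from that of Otof. All 4 were lower in both homozygous pools, as were 18 of the 23 members tested, on any chromosome, and 24.5% of all genes tested. Their log2 fold changes were -1.83, -0.73, -0.80 and -0.90 by edgeR, and of these 4 Gabrg1 alone passed DESeq2. Whether their position matters was not tested. Gabra5 and Gabrg3 are neighbours on chromosome 7. Gabra3, Gabre, Gabrq, Glra2 and Glra4 are on the X chromosome, and sex-linked transcripts varied among the pools. Gabra3 and Gabrq were highest in homozygous replicate 2, the pool with no Ddx3y counts, though Gabrq had only 4 to 10 counts per pool. The other X-linked members, Gabre, Glra2 and Glra4, were highest in heterozygous replicate 2. The part of sex in the levels of these genes was not tested.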
